A study of Mus musculus with 4 samples.

Results

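The 9 genes described here, Has1, Has2, Ptx3, Tnfaip6, Mt1, Mt2, Saa3, Lcn2 and Socs3, were taken by symbol from the 32285 genes of a single-cell RNA sequencing (scRNA-seq) series on mouse brown adipose tissue (BAT). They were chosen by their levels in these same libraries, so the levels are a description and carry no test. The cells were the stromal vascular fraction (SVF), which holds the fibroblasts, adipocyte precursors, immune cells and vascular cells of the tissue without the mature adipocytes, captured after a sort whose gate the methods do not name. By the methods, tissue was harvested after a fast of 16 h, and SVF cells for scRNA-seq were frozen in serum and dimethylsulfoxide. The part of either in the levels was not tested. There were 4 libraries, 1 per group, all labelled strain C57BL6/J. Each was a pool of 3 mice by the figure legends, and the mice were male by the methods. The groups were WT mice whose label gives 10 weeks of age, db/db mice at 8 weeks and at 16 weeks (8-week and 16-week db/db, written db/db 8w and db/db 16w in the plots), and mice on a high-fat diet (HFD) whose label gives 10 weeks of age. The db/db mice carry the Lepr db allele of the leptin receptor in every cell and not in 1 cell type alone. By the methods the diet began at 10 weeks of age and lasted 10 weeks, so the label does not settle how old the HFD mice were. Figure legends of the study give 8 and 16 weeks for both WT and db/db mice, so the age of the WT mice is not settled either. The question behind the comparison was which cells of BAT carry these transcripts and how the levels differ in genetic and dietary obesity.

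Hyaluronan is a long sugar polymer that synthases extrude from the plasma membrane into the matrix. Has1 and Has2 are such synthases, Tnfaip6 (TSG-6) moves heavy chains of inter-alpha-inhibitor onto hyaluronan, and the secreted pentraxin Ptx3 cross-links the matrix so formed. Saa3 (a serum amyloid A) and Lcn2 (a lipocalin that binds bacterial siderophores and is stored in neutrophil granules) are acute-phase proteins, Socs3 is the feedback inhibitor of STAT3 signalling below leptin and interleukin-6 type cytokines, and Mt1 and Mt2 are metallothioneins, small cysteine-rich proteins that bind zinc and copper and are induced by metals and glucocorticoids.

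Promoter windows are shown for the genes set side by side later, Has1 with Ptx3 and Tnfaip6, and Mt1 with Mt2. The RefSeq table used (GRCm38.p6) held 8 of the 9 genes and no entry for Has2. Each line runs 5′ to 3′ on the strand of the gene over the 250 bases before its RefSeq start, and it ends before the first protein-coding start of GENCODE where that lies upstream, which left 146 bases for Tnfaip6 and 243 for Mt1.
Has1, chr17:17855189-17855438, minus strand: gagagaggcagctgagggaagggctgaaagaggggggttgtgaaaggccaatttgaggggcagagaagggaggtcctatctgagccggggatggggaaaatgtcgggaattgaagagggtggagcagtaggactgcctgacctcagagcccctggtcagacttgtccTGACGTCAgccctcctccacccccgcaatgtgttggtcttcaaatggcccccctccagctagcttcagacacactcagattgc
Ptx3, chr3:66219637-66219886, plus strand: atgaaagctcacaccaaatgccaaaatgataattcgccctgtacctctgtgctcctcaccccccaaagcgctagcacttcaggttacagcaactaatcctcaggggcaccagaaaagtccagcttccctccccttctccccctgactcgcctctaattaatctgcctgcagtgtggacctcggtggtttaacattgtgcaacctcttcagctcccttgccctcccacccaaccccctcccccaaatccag
Tnfaip6, chr2:52037863-52038008, plus strand: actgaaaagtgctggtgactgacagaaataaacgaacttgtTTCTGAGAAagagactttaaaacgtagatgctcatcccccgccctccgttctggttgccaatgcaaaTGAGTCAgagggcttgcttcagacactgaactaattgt
Mt1, chr8:94178839-94179081, plus strand: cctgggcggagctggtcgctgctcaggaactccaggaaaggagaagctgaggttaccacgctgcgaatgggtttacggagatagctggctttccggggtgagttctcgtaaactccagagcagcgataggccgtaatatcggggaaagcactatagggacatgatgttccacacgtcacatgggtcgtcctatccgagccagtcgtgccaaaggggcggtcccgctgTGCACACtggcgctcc
Mt2, chr8:94172368-94172617, plus strand: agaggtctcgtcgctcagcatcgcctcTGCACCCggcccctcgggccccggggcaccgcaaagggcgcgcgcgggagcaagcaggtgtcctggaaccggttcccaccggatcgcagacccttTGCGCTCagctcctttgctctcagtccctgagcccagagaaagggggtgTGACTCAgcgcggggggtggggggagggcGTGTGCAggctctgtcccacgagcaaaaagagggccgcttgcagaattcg
Capitals mark matches on either strand to any of 6 motifs, which are the metal response cores TGCACNC and TGCGCNC, the STAT motif TTCNNNGAA, the AP-1 motif TGANTCA, the cAMP response motif TGACGTCA and the kappa B motif. The Has1 window held 1 TGACGTCA, 83 bases before the start, which 1.55% of the 32851 windows of all genes also held. The Tnfaip6 window held 1 AP-1 match and 1 STAT match, found in 6.75% and 7.02% of all windows, and the Ptx3 window held no match to any of the 6. The Mt2 window held 3 metal response cores, where 1.26% of all windows held at least as many, and an AP-1 match, while the Mt1 window held 1 core, where 21.4% held any. GENCODE gives Mt1 further protein-coding starts 122 and 152 bases downstream of the RefSeq start, and Mt2 46 and 242 bases downstream, so the windows do not stand before every start. The bases between the RefSeq start and these later starts were not searched, so nothing is read from 1 core in Mt1 beside 3 in Mt2. A match describes letters and is not a measured site.

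Each library held 6517 to 18306 cell barcodes and 28504069 to 61828295 unique molecular identifiers (UMIs), each counting 1 captured mRNA molecule. The limits of the study on genes, UMIs and mitochondrial share left 5462 to 11648 cells per library. Barcodes over the mitochondrial limit were 28.0% in WT, 35.6% in 8-week db/db, 1.04% in 16-week db/db and 68.5% in HFD. Cells were called stromal when Col1a1, Col3a1 and Dcn together reached 50 of 10000 UMIs and no other lineage reached its own gate, which gave 4236 WT, 6246 8-week db/db, 1124 16-week db/db and 1437 HFD cells, with median depths of 7063, 3322, 2826.5 and 5021 UMIs. In these cells the 5 neutrophil markers summed to 1.65 to 11.1 CPM (counts scaled to a common total over the cells summed), the 7 macrophage markers to 140 to 512 CPM, and the 6 endothelial markers to 2.14 to 114 CPM, highest in HFD. Mural markers summed to 8.61, 22.1, 112 and 109 CPM and adipocyte markers to 3.03, 10.3, 4.26 and 48.7 CPM in WT, 8-week db/db, 16-week db/db and HFD, and the part of these in the levels below was not tested. Xist was at 207 CPM in the 16-week db/db library and at 0.187 to 0.688 CPM in the other 3. The Y-linked genes Ddx3y, Eif2s3y, Kdm5d and Uty summed to 17.7 CPM in 16-week db/db and to 164 to 188 CPM in the other 3. Both go against the stated male sex for 16-week db/db, so age, this difference in sex-linked RNA and the library cannot be told apart there. A pair of libraries shared 16 to 97 barcodes.

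In stromal cells, Has1, Ptx3, Tnfaip6 and Socs3 were lower in each of the 3 obese libraries than in WT, Saa3 was higher, and Mt1 and Mt2 were lowest in HFD. A level is the sum of the UMIs of a gene over all UMIs of the cells, in CPM, and a difference is a log2 ratio with 10 CPM added to both levels. At a log2 ratio of 1 or more in size, a gene was counted as past 2-fold. In 8-week db/db, 3 of the 9 genes (Has1, Ptx3 and Socs3) were at least 2-fold lower, as were 1.27% of all genes tested, and 1 (Saa3) was higher, as were 2.35%. In 16-week db/db, 5 (Has1, Has2, Ptx3, Tnfaip6 and Socs3) were lower and 0 higher, against 8.2% and 7.57% of all genes. In HFD, 6 (Has1, Ptx3, Tnfaip6, Mt1, Mt2 and Socs3) were lower and 1 (Saa3) was higher, against 4.25% and 5.73%. Over the 9 genes the median log2 ratio stood at -0.69 in 8-week db/db, -1.17 in 16-week db/db and -1.33 in HFD, beside 0.01, -0.02 and 0.05 over all genes tested. The genes tested had 10 CPM or more in either library, which 8, 7 and 8 of the 9 reached in the 3 comparisons. The counts and medians of the 9 also hold the genes below that level, so the 2 sets are not matched. The genes were chosen for these levels, so nothing is read from the distance to the background. All 3 comparisons share the WT library. Intervals are exact, at 95%, and cover counting error only, not the spread between mice.

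**Figure D1:**
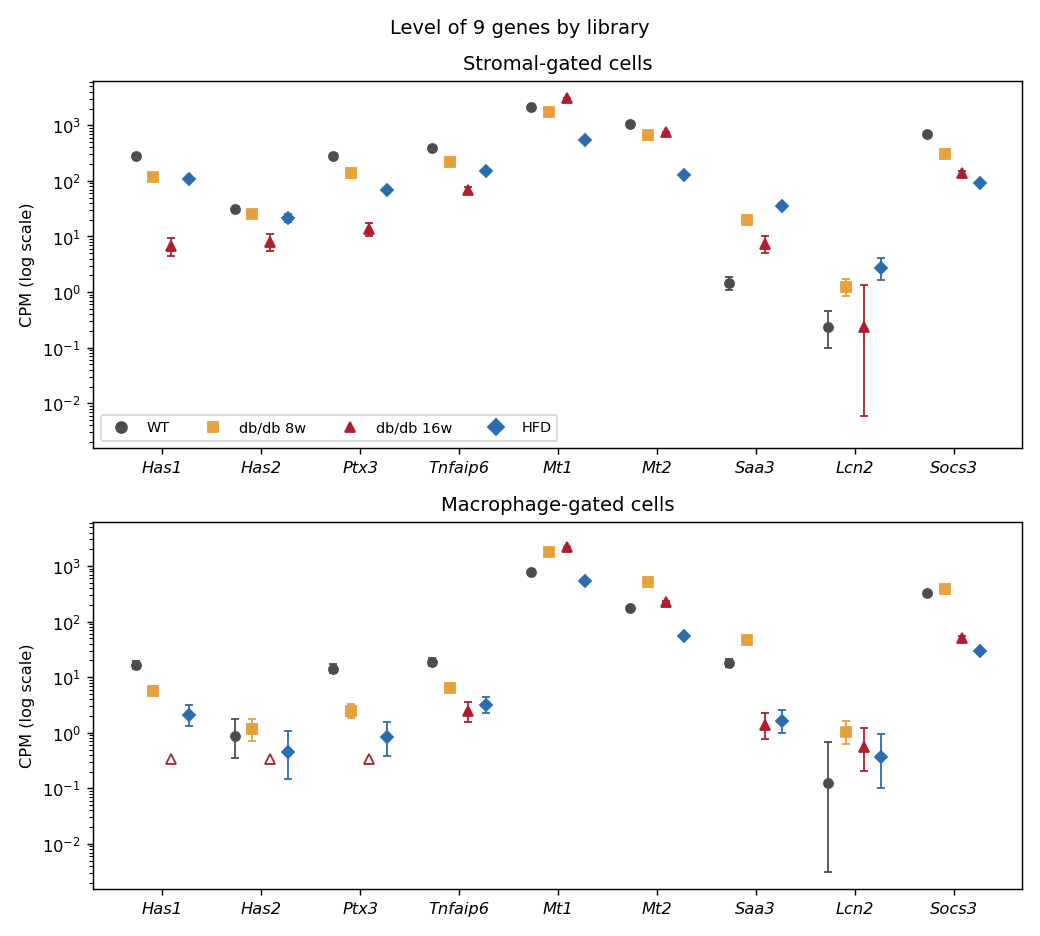
Level of the 9 genes in CPM on a log scale, in stromal cells (top) and macrophages (bottom), with 1 symbol per library and bars for exact Poisson 95% intervals. An open symbol is a count of 0, drawn at the upper end of its interval. In stromal cells Has1 goes from 282 CPM in WT to 6.62 CPM in 16-week db/db, and Mt1 is lowest in HFD at 548 CPM.

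Has1 (ENSMUSG00000003665, protein-coding, chr17:17843323-17855205, minus strand) was found mainly in stromal cells, which held 96.8% of its UMIs in WT, 92.6% in 8-week db/db, 80.0% in 16-week db/db and 79.8% in HFD. Its stromal level was 282 CPM in WT (277 to 288), 119 in 8-week db/db (115 to 123), 6.62 in 16-week db/db (4.40 to 9.57) and 107 in HFD (99.6 to 114). WT was highest, 8-week db/db and HFD lay near each other, and 16-week db/db was below all. Against WT, Has1 was 2.37-fold lower in 8-week db/db, 2.65-fold lower in HFD, and 42.6-fold lower in 16-week db/db (29.5 to 64.2), where 28 UMIs came from 13 cells. A Has1 UMI was seen in 30.1% of WT stromal cells, 13.7% in 8-week db/db, 1.16% in 16-week db/db and 23.4% in HFD. With each cell thinned to 1000 UMIs, which left out 102, 1157, 105 and 1 cells below that depth, the shares were 12.3%, 6.29%, 0.294% and 6.48%. T and NK cells, which should lack Has1, gave a thinned share of 0 of 32 cells in WT (up to 10.9%), 0 of 112 in 8-week db/db (up to 3.24%), 0 of 47 in 16-week db/db (up to 7.55%) and 1 of 34 in HFD (2.94%), at median depths of 4665, 2967.5, 1625 and 2659 UMIs. The stromal shares of WT and 8-week db/db are above these limits, that of 16-week db/db is within them, and that of HFD is not set apart from 1 of 34 cells.

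Has2 (ENSMUSG00000022367, protein-coding, chr15:56665627-56694539, minus strand), the other synthase, was lower than Has1 in every library but 16-week db/db, on the CPM scale of this 3′ assay, in which a count does not scale with transcript length. Its stromal level was 30.7 CPM in WT (28.9 to 32.6), 25.1 in 8-week db/db (23.3 to 27.0), 8.04 in 16-week db/db (5.57 to 11.2) and 21.4 in HFD (18.3 to 24.9). The intervals of 8-week db/db and HFD overlap with WT just above them, and 16-week db/db alone was past 2-fold, at 3.82-fold lower than WT (2.72 to 5.55). The remaining synthase, Has3, was at 0 to 0.638 CPM.

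Ptx3 (ENSMUSG00000027832, protein-coding, chr3:66219910-66225805, plus strand), which stabilises hyaluronan matrix, had the same order of libraries as Has1. Its stromal level was 284 CPM in WT (278 to 290), 136 in 8-week db/db (132 to 141), 13.5 in 16-week db/db (10.2 to 17.5) and 69.3 in HFD (63.6 to 75.4). All 4 intervals are apart, with HFD between the db/db libraries. It was 2.08-fold lower than WT in 8-week db/db, at the threshold with a log2 ratio of -1.01, 21.1-fold lower in 16-week db/db (16.2 to 27.8) and 4.10-fold lower in HFD. In thinned cells a Ptx3 UMI was seen in 12.2% of WT, 6.09% of 8-week db/db, 0.981% of 16-week db/db and 4.74% of HFD stromal cells, in the same order.

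Tnfaip6 (ENSMUSG00000053475, protein-coding, chr2:52038009-52056686, plus strand), whose product carries heavy chains to hyaluronan, was the most abundant of the 4 matrix genes in each library. Its stromal level was 383 CPM in WT (376 to 389), 219 in 8-week db/db (214 to 225), 69.8 in 16-week db/db (62.0 to 78.2) and 151 in HFD (142 to 160). The order WT, 8-week db/db, HFD, 16-week db/db was that of Ptx3, with smaller differences: 1.74-fold lower than WT in 8-week db/db, which was not past 2-fold, 2.54-fold lower in HFD and 5.49-fold lower in 16-week db/db (4.89 to 6.18). The thinned shares, 18.5%, 11.8%, 4.81% and 11.1% in WT, 8-week db/db, 16-week db/db and HFD, put 8-week db/db and HFD close together.

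Has1, Ptx3 and Tnfaip6 were often in the same cells. In thinned cells, at least 1 of the 3 was seen in 29.7% of WT stromal cells, 18% in 8-week db/db, 5.79% in 16-week db/db and 20.8% in HFD, and all 3 in 2.59%, 0.865%, 0 of 1019 (up to 0.361%) and 0.418%. Cells with both Has1 and Ptx3 were 2.82 times as many as independent detection gives in WT, 4.06 times in 8-week db/db and 3.33 times in HFD, and 16-week db/db had too few Has1 cells for a ratio. The correlation of Has1 with Ptx3 across stromal cells of 1 library was 0.47 in WT, 0.33 in 8-week db/db, 0.13 in 16-week db/db and 0.20 in HFD, and that of Ptx3 with Tnfaip6 was 0.53, 0.38, 0.10 and 0.19. Cells of a library share their capture and differ in depth, and cells are no replicates, so these are descriptions. Few cells carried most Has1 UMIs: the top 5% of stromal cells held 62.1% in WT, 79.9% in 8-week db/db and 50.7% in HFD.

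Mt1 (ENSMUSG00000031765, protein-coding, chr8:94179082-94180327, plus strand) and Mt2 (ENSMUSG00000031762, protein-coding, chr8:94172664-94173568, plus strand) are metallothionein genes 5513 bases apart, and Mt1 was the most abundant of the 9 in stromal cells of every library. The level of Mt1 was 2098 CPM in WT, 1771 in 8-week db/db, 3083 in 16-week db/db and 548 in HFD, and that of Mt2 was 1074, 663, 743 and 128 CPM. HFD was lowest for both, and 16-week db/db was highest for Mt1 but not for Mt2. In HFD, Mt1 was 3.83-fold lower (3.71 to 3.95) and Mt2 8.38-fold lower than WT (7.87 to 8.93). In 16-week db/db, Mt1 was 1.47-fold higher than WT and Mt2 1.45-fold lower, neither past 2-fold. A thinned cell held an Mt1 UMI in 49.4% of WT, 53.8% of 8-week db/db, 73.5% of 16-week db/db and 36.6% of HFD stromal cells. For Mt1 the thinned shares put 8-week db/db above WT while the CPM put it below, so no order is read between these libraries. For Mt2 the shares were 33.9%, 28.9%, 29.4% and 10.0%, again lowest in HFD. Across stromal cells of a library, Mt1 and Mt2 correlated at 0.61 in WT, 0.43 in 8-week db/db, 0.49 in 16-week db/db and 0.36 in HFD. Stromal cells held 90% of Mt1 UMIs in WT, 55.3% in 8-week db/db, 20.5% in 16-week db/db and 32.6% in HFD, where they were 71.3%, 53.6%, 19.3% and 26.3% of the kept cells.

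The ratio of Mt1 to Mt2 UMIs differed by library and lineage. In stromal cells it was 1.95 in WT (1.93 to 1.98), 2.67 in 8-week db/db (2.63 to 2.72), 4.15 in 16-week db/db (3.99 to 4.32) and 4.28 in HFD (3.99 to 4.59). In macrophages it was 4.56 in WT (4.30 to 4.83), 3.35 in 8-week db/db (3.28 to 3.43), 9.67 in 16-week db/db (9.28 to 10.1) and 9.59 in HFD (8.82 to 10.4). In both lineages 16-week db/db and HFD had overlapping intervals and stood above WT and 8-week db/db, while WT was below 8-week db/db in stromal cells and above it in macrophages. The transcripts are close in sequence, and a read that fits both genes is left out by the counting, so the ratio is uncertain as a ratio of molecules.

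**Figure D2:**
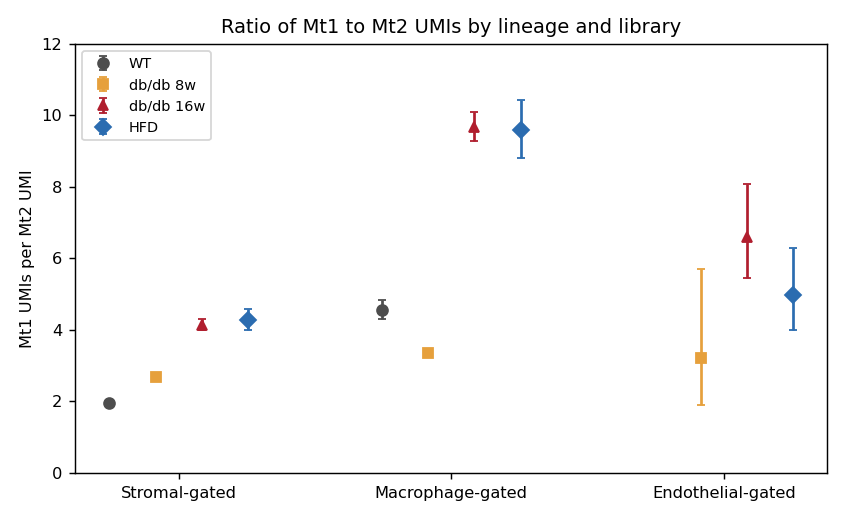
Mt1 UMIs per Mt2 UMI (y axis) in stromal, macrophage and endothelial cells, with 1 symbol per library and bars for exact 95% counting intervals. WT endothelial cells, 20 in all, are not drawn. In macrophages 16-week db/db and HFD lie at 9.67 and 9.59, above WT at 4.56.

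Saa3 (ENSMUSG00000040026, protein-coding, chr7:46711998-46715700, minus strand) was rare in stromal cells. Its level was 1.44 CPM in WT (1.07 to 1.90), 19.9 in 8-week db/db (18.3 to 21.7), 7.33 in 16-week db/db (4.98 to 10.4) and 34.8 in HFD (30.8 to 39.2). WT was lowest and HFD highest, but the UMIs came from 32, 73, 6 and 33 cells. In 8-week db/db a single cell held 322 of the 548 UMIs, and without it the level was 8.23 CPM and the log2 ratio to WT went from 1.39 to 0.67, no longer past 2-fold. In HFD the top cell held 49 of 273 UMIs, and without it the level was 28.6 CPM with a log2 ratio of 1.75.

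Lcn2 (ENSMUSG00000026822, protein-coding, chr2:32384633-32388252, minus strand) was at 0.231 CPM in WT stromal cells, 1.24 in 8-week db/db, 0.236 in 16-week db/db and 2.68 in HFD, from 8, 34, 1 and 21 UMIs. No library reached 10 CPM, and the log2 ratios lay between 0.00 and 0.31. Its highest level in WT and both db/db libraries was in neutrophils, at 924 CPM in 5 WT cells (492 to 1580), 1487 CPM in 87 8-week db/db cells (1283 to 1714) and 2489 CPM in 10 16-week db/db cells (1611 to 3674), and HFD had 0 neutrophils. Neutrophils held 44.8% of Lcn2 UMIs in WT, 36.1% in 8-week db/db and 59.5% in 16-week db/db. In 8-week db/db, 22 barcodes that passed the gates of more than 1 lineage held 205 Lcn2 UMIs (38.9%), above the 190 of the neutrophils, and 20 of the 22 had a neutrophil marker UMI. There, 4 of 87 endothelial cells held a further 73 UMIs, of which 61 were in 1 cell.

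Socs3 (ENSMUSG00000053113, protein-coding, chr11:117966079-117970047, minus strand), the STAT3 feedback inhibitor, was lower in all 3 obese libraries. Its stromal level was 710 CPM in WT, 305 in 8-week db/db, 140 in 16-week db/db and 90.7 in HFD. The order put HFD below 16-week db/db, unlike the matrix genes. It was 2.33-fold lower than WT in 8-week db/db (2.27 to 2.39), 5.09-fold lower in 16-week db/db (4.69 to 5.53) and 7.82-fold lower in HFD (7.26 to 8.44). The thinned shares of cells with a Socs3 UMI were 24.0% in WT, 14.7% in 8-week db/db, 8.24% in 16-week db/db and 7.45% in HFD, in the order of the CPM.

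**Figure D3:**
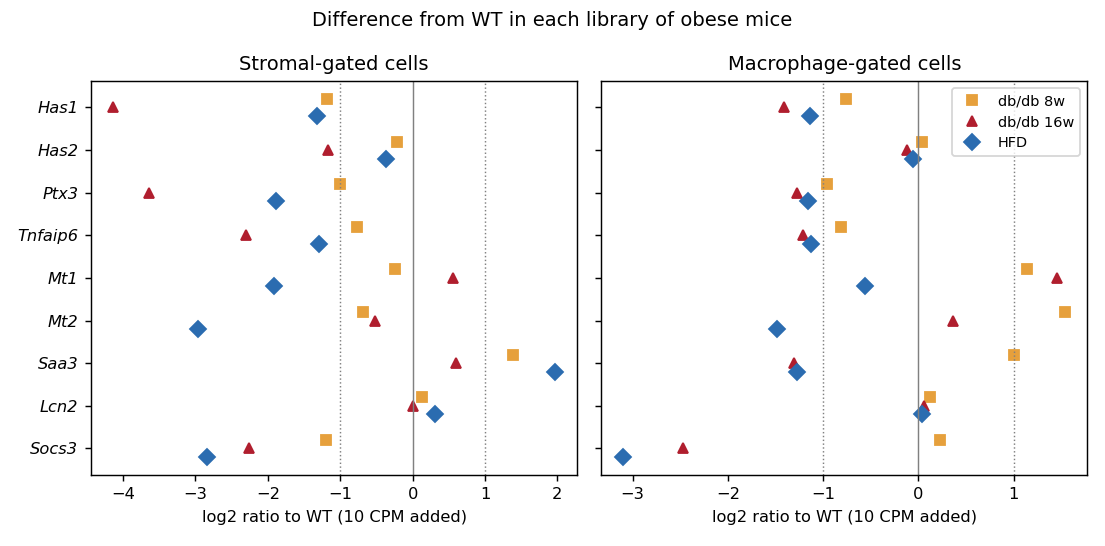
Difference from WT as a log2 ratio (10 CPM added) of the 9 genes in stromal cells (left) and macrophages (right), with 1 symbol per obese library and dotted lines at 2-fold. Has1 and Ptx3 in 16-week db/db lie at -4.14 and -3.65 in stromal cells, while Mt1 lies at 0.55 there and at 1.46 in macrophages.

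Between the db/db libraries, 4 of the 9 genes (Has1, Ptx3, Tnfaip6 and Socs3) were at least 2-fold lower at 16 than at 8 weeks, as were 5.09% of all genes tested, and 0 were higher, as were 2.24%. Here 8 of the 9 reached the 10 CPM required of the genes tested. Has1 was 18-fold lower (12.4 to 27.1), Ptx3 10.1-fold, Tnfaip6 3.15-fold and Socs3 2.18-fold. Mt1 was 1.74-fold higher at 16 weeks. Age, the difference in Xist and Y-linked RNA, and the library cannot be told apart here.

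Depth went with several of these levels. The WT library had 34.0% of its stromal cells above 10000 UMIs, against 8.37%, 4.80% and 4.66% in 8-week db/db, 16-week db/db and HFD, and within WT Mt1 went from 745 CPM in cells of 2000 to 5000 UMIs to 2737 CPM above 10000, and Socs3 from 220 to 951 CPM. Among cells of 2000 to 5000 UMIs, the Has1 level was 157 CPM in WT, 76.1 in 8-week db/db, 3.06 in 16-week db/db and 85.5 in HFD, and the Ptx3 level 152, 95.3, 11.0 and 51.3 CPM. In that range Socs3 was at 220, 204, 103 and 91.8 CPM, so 8-week db/db differed from WT by a log2 ratio of -0.10 and none of its 3 lower calls was left. Mt1 was at 745 CPM in WT, 1453 in 8-week db/db, 2688 in 16-week db/db and 537 in HFD, and its log2 ratio became 0.95 in 8-week db/db and 1.84 in 16-week db/db, both higher than WT where 8-week db/db had been lower. In HFD, Ptx3, Mt2 and Socs3 stayed past 2-fold, while Has1, Tnfaip6 and Mt1 did not. The part of depth in the differences was not tested beyond these values.

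**Figure D4:**
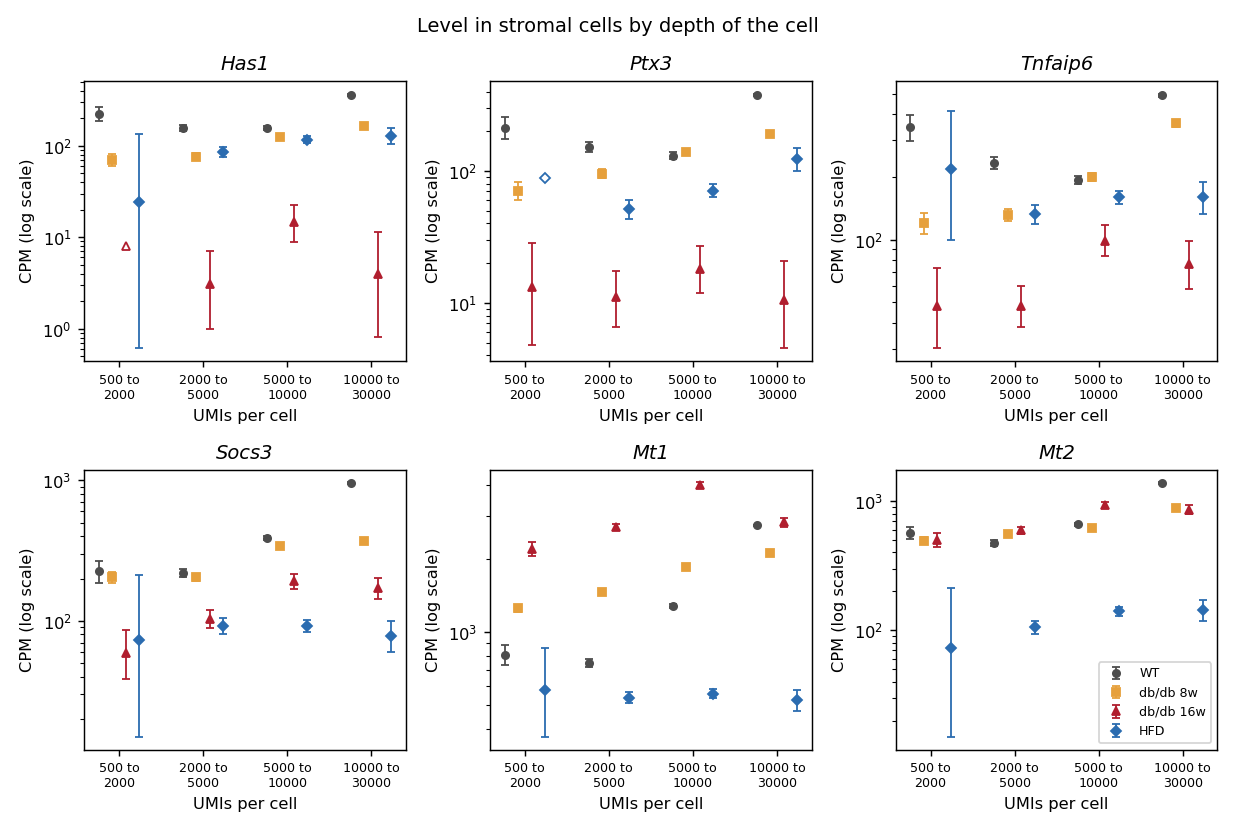
Level in CPM (log scale) of 6 genes in stromal cells by the depth of the cell, in 4 ranges of UMIs per cell on the x axis, with 1 symbol per library, bars for exact Poisson 95% intervals, and open symbols for a count of 0 at the upper end of its interval. For Mt1, 8-week db/db lies above WT at 2000 to 5000 UMIs (1453 and 745 CPM) and below it above 10000 UMIs (2112 and 2737 CPM).

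Mitochondrial share, stress genes and nuclear RNA also differed between libraries. The median mitochondrial share of stromal cells was 3.52% in WT, 5.59% in 8-week db/db, 0.411% in 16-week db/db and 9.70% in HFD. The 10 immediate-early and heat shock genes listed, among them Fos, Junb and Hspa1a, summed to 16780 CPM in WT, 12395 in 8-week db/db, 5491 in 16-week db/db and 11544 in HFD. Of them, 0 were past 2-fold in 8-week db/db, all 10 were lower in 16-week db/db, and in HFD 5 were lower and 1 (Fosb) higher. The HFD sum joins genes that went opposite ways. Hspa1b was at 54.2 CPM there against 2870 in WT (log2 ratio -5.49) and Hspa1a at 67.2 against 2347 (-4.93). Fosb was at 1676 CPM in HFD against 468 in WT (1.82). Of 5 RNAs listed as nuclear-retained (Malat1, Neat1, Meg3, Kcnq1ot1 and Gm42418), 4, all but Malat1, were lower in 16-week db/db and none was past 2-fold in 8-week db/db or HFD. Gm42418 was the largest in WT, at 78471 CPM, and whether it belongs in that list was not checked. Among cells of 5% to 15% mitochondrial UMIs, of which 16-week db/db had 52, the log2 ratio of Has1 was -1.50 in 8-week db/db and -0.83 in HFD, 16-week db/db had 0 Has1 UMIs, and the log2 ratio of Mt1 was 0.54, 1.69 and -0.53 in 8-week db/db, 16-week db/db and HFD. Socs3 in 16-week db/db was no longer past 2-fold there, with a log2 ratio of -0.78. Within WT, Socs3 went from 958 CPM at 0 to 2.5% mitochondrial UMIs to 229 CPM at 10% to 15%. At 5% to 10% it was at 301 CPM in WT, 177 in 8-week db/db, 178 in 16-week db/db and 93.9 in HFD. The part of these differences in the levels of the 9 genes was not tested.

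The stromal cells of the libraries were not alike. Cells with more UMIs of a Pi16 and Dpp4 list (Pi16, Dpp4, Cd55, Sema3c and Anxa3, genes of interstitial progenitors) made up 78.3% of stromal cells in WT, 33.8% in 8-week db/db, 3.02% in 16-week db/db and 11.8% in HFD. Cells with more of a Col15a1 and Col4a1 list (Col15a1, Col4a1, Col4a2, Cxcl14 and Smoc2) made up 20.3%, 60.7%, 95.8% and 87.8%. Has1 was higher on the first side in WT, 8-week db/db and HFD, at 341 CPM in WT, 198 in 8-week db/db, 0 in 16-week db/db and 216 in HFD, against 74.1, 80.1, 6.77 and 95 CPM on the second. Its ratio between the sides was 4.60 in WT (4.22 to 5.02), 2.47 in 8-week db/db (2.31 to 2.65) and 2.27 in HFD (1.90 to 2.70). On the second side alone, Has1 was not lower than WT in 8-week db/db or HFD, with log2 ratios of 0.10 and 0.32, while 16-week db/db was lower, at -2.33. Has2 had a ratio between the sides of 4.57 in WT, 2.92 in 8-week db/db and 4.68 in HFD, and on the second side alone it was at 8.10 CPM in WT and 8.22 in 16-week db/db, where its lower level over all stromal cells was lost. The 16-week db/db library had 34 cells on the first side, with 0 UMIs of either synthase.

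The other genes were spread otherwise. Ptx3 was at 265, 154, 51.7 and 102 CPM on the Pi16 and Dpp4 side and at 352, 129, 11.8 and 66.0 CPM on the Col15a1 and Col4a1 side of WT, 8-week db/db, 16-week db/db and HFD, and Tnfaip6 at 348, 131, 38.8 and 163 against 510, 265, 70.4 and 150 CPM. Both were lower than WT on each side in every obese library. In 16-week db/db the Pi16 and Dpp4 side had 4 Ptx3 UMIs (14.1 to 132 CPM) and 3 Tnfaip6 UMIs (7.99 to 113 CPM). Socs3 was at 1028 CPM in WT, 367 in 8-week db/db, 141 in 16-week db/db and 90.2 in HFD on the Col15a1 and Col4a1 side, in the same order as over all stromal cells. With the Pi16 and Dpp4 list higher, Socs3 was at 621, 181, 12.9 and 95.4 CPM. There 16-week db/db was below HFD, from 1 UMI (0.327 to 72.0 CPM). Saa3 and Mt1 are given below with the Col15a1 and Col4a1 side first. Mt1 was higher on the Col15a1 and Col4a1 side in each library, at 2676, 2097, 3124 and 573 CPM against 1945, 1118, 1176 and 318 CPM. Saa3 in HFD was at 38.5 CPM there against 1.33 CPM on the other side.

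**Figure D5:**
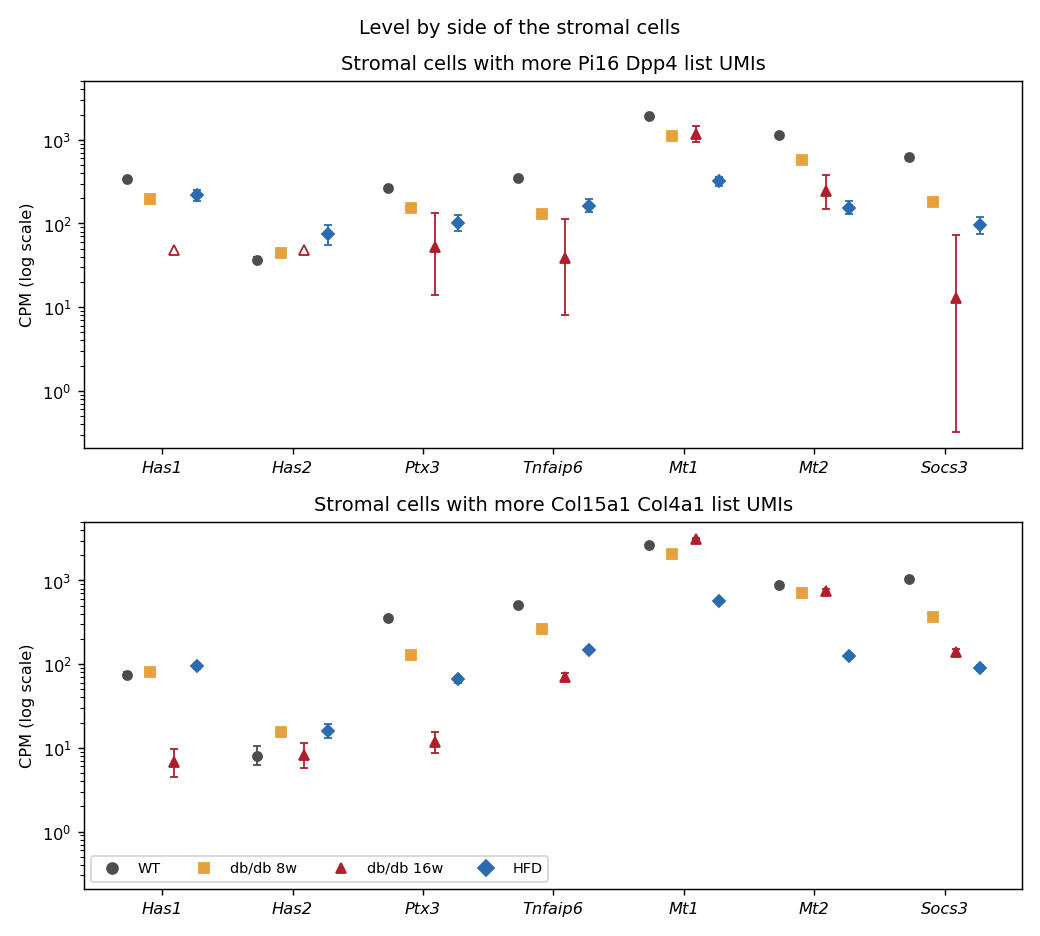
Level in CPM (log scale) of 7 genes in stromal cells with more UMIs of the Pi16 and Dpp4 list (top) or of the Col15a1 and Col4a1 list (bottom), with 1 symbol per library, exact Poisson 95% intervals, and open symbols for a count of 0 at the upper end of its interval. On the lower panel Has1 in WT, 8-week db/db and HFD lies between 74.1 and 95 CPM, while Ptx3 and Socs3 are highest in WT.

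In macrophages the matrix genes were low and Mt1 was the most abundant of the 9 genes in every library. Mt2 ranged from 55.3 CPM in HFD to 523 CPM in 8-week db/db, and Socs3 from 29.1 to 383 CPM in the same 2 libraries. The gate on 7 markers such as C1qa, Cd68 and Csf1r took 1234 WT, 2968 8-week db/db, 1709 16-week db/db and 1540 HFD cells, with median depths of 5492, 4812, 4864 and 5690.5 UMIs. In 8-week db/db, 3 of the 9 genes (Mt1, Mt2 and Saa3) were at least 2-fold higher than WT and 0 lower, against 2.63% and 2.27% of all genes tested. The Saa3 call stood at the threshold, with a log2 ratio of 1.01, and was lost without the cell of 8-week db/db with the most Saa3 UMIs (0.60) and with a macrophage gate of 20 in 10000 (0.92). In 16-week db/db, 1 was higher (Mt1) and 5 were lower (Has1, Ptx3, Tnfaip6, Saa3 and Socs3), against 11.9% and 14.5%. In HFD, 0 were higher and 6 were lower (Has1, Ptx3, Tnfaip6, Mt2, Saa3 and Socs3), against 6.97% and 6.71%. At 16 against 8 weeks in db/db, 3 were lower (Mt2, Saa3 and Socs3) and 0 higher, against 9.26% and 4.22%. The 10 CPM required of the genes tested was reached by 7 of the 9 in each comparison with WT and by 4 between the db/db libraries.

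Mt1 in macrophages was at 787 CPM in WT, 1753 in 8-week db/db, 2182 in 16-week db/db and 530 in HFD, and Mt2 at 173, 523, 226 and 55.3 CPM. Both db/db libraries lay above WT and HFD below. Mt1 was 2.23-fold higher than WT in 8-week db/db and 2.77-fold higher in 16-week db/db, and Mt2 3.03-fold higher in 8-week db/db (2.86 to 3.20). Mt3, a metallothionein known from brain, was at 0 CPM in WT, 11.1 in 8-week db/db, 13.4 in 16-week db/db and 1.56 in HFD macrophages. Socs3 was at 325 CPM in WT, 383 in 8-week db/db, 50.2 in 16-week db/db and 29.1 in HFD, so 8-week db/db was slightly above WT here and below it in stromal cells, a difference that was not tested. Saa3 was at 18.2, 46.7, 1.40 and 1.65 CPM, with 249 of 844 UMIs in 1 cell of 8-week db/db, without which its level was 32.9 CPM. A looser macrophage gate of 20 in 10000 added 600 cells in 16-week db/db and gave 2433 CPM of Mt1 and 38.6 of Socs3 there. In macrophages, too, the immediate-early and heat shock genes differed, at 24112, 11211, 4411 and 5009 CPM in sum. Their median mitochondrial share was 6.53% in WT, 5.05% in 8-week db/db, 0.698% in 16-week db/db and 10.4% in HFD. The study named several macrophage subsets, which the gate joined, and the macrophages of the libraries were not alike. Lyve1 was at 937 CPM in WT, 548 in 8-week db/db, 129 in 16-week db/db and 7.89 in HFD macrophages. The part of subset make-up in the macrophage levels was not tested.

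Has1 in macrophages was at 16.7 CPM in WT, 5.75 in 8-week db/db, 0 in 16-week db/db and 2.11 in HFD, and thinned cells had a Has1 UMI in 2.14%, 0.438%, 0 of 1620 (up to 0.227%) and 0.325%. Ptx3 was at 14.2, 2.49, 0 and 0.826 CPM, and Tnfaip6 at 18.9, 6.47, 2.42 and 3.21 CPM. For all 3 the order of the libraries was that of the stromal levels, and the stromal markers Col1a1, Col3a1 and Dcn were at 163, 222 and 280 CPM in WT macrophages and at 9.04, 13.0 and 2.80 CPM in those of 16-week db/db. Free RNA and doublets were not modelled, and their part in these levels was not tested.

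Endothelial cells were many in 16-week db/db (1292) and HFD (1165) and few in WT (20) and 8-week db/db (87). Their Mt1 level was 468 CPM in 16-week db/db and 85.8 in HFD, and their Socs3 level 390 CPM and, in HFD, 100.9 CPM. In 16-week db/db Socs3 was thus higher in endothelial than in stromal cells, at 390 against 140 CPM, and endothelial cells held 30.0% of its UMIs. T and NK cells, 33 to 116 per library, had Mt1 at 48.4 CPM in WT, 114 in 8-week db/db, 63.1 in 16-week db/db and 82.9 in HFD. These were below the stromal and macrophage levels of each library, and in HFD, with 8 UMIs, not set apart from the endothelial level. Cells that reached no gate held 38.7% of Mt1 UMIs in 16-week db/db and 0.560% to 6.12% in the other libraries.

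Genes of the same pathways, from lists made with earlier results known, were counted in stromal cells among those at 10 CPM or more in at least 1 library. Over all genes tested, 1.27% were lower and 2.35% higher in 8-week db/db, 8.2% and 7.57% in 16-week db/db, and 4.25% and 5.73% in HFD. Of 8 measured genes of hyaluronan supply, turnover and binding, 0 were past 2-fold in 8-week db/db, 1 (Ugdh) was lower in 16-week db/db, and in HFD Ugdh was lower while Cd44 and Itih5 were higher. Ugdh, which makes the UDP-glucuronate that synthases use, was at 616 CPM in WT, 349 in 8-week db/db, 62.9 in 16-week db/db and 204 in HFD, with log2 ratios of -0.80, -3.10 and -1.55. Itih5, of the inter-alpha-inhibitor heavy chain family, was at 545, 728, 865 and 1345 CPM, and Cd44, a hyaluronan receptor, at 35.9, 79.4, 44.5 and 93.7 CPM.

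Of 14 measured acute-phase and interleukin-6 pathway genes, 1 was lower in 8-week db/db, 7 were lower and 1 higher in 16-week db/db, and 5 were lower and 2 higher (Hp and Steap4) in HFD, with list medians of -0.34, -0.98 and -0.13. C3, the central complement component, was lower in all 3, at 4046 CPM in WT, 1325 in 8-week db/db, 663 in 16-week db/db and 1459 in HFD. Steap4, a metalloreductase induced by inflammation, was higher in 16-week db/db and HFD, at 46.8, 103, 246 and 215 CPM. Il6 was at 50.1, 29.6, 5.44 and 46.4 CPM and its receptor Il6ra at 150, 103, 19.6 and 40.2 CPM.

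Of 4 measured genes of metal handling, among them Mtf1, the metal-sensing activator of metallothioneins, and the zinc exporter Slc30a1, 0 were past 2-fold in any library, with medians of 0.09, 0.29 and 0.20. Of 5 glucocorticoid targets, Sgk1 was higher in all 3 libraries, at 67.7 CPM in WT, 149 in 8-week db/db, 216 in 16-week db/db and 187 in HFD. Zbtb16 was lower in 16-week db/db and HFD, Tsc22d3 was lower in HFD, and the list medians were -0.07 and -0.13 in the db/db libraries and -0.999 in HFD. In macrophages, 10 of 13 measured acute-phase genes were lower in 16-week db/db, 8 in HFD and 2 in 8-week db/db, where 14.5%, 6.71% and 2.27% of all genes tested were lower.

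Across the 15 groups of a library and a lineage with 50 or more cells, the genes with levels most like those of each member were sought among 10185 genes, and Pearson's r is given as a description, since the groups share libraries and lineages. Has1 was most like Aldh1a3 (0.98), Ptx3 most like Lgi2 (0.99), Tnfaip6 most like Ifi205 (0.99), and Has2 most like Fbln1 (0.99). Mt1 was most like Mt2 (0.92), then Cbr3 (0.88), and Socs3 was most like Zfp36 (0.77). Across stromal cells within a library, the gene whose lowest r over the 4 libraries was highest was Mt2 for Mt1 (0.36), Junb for Socs3 (0.30) and Tnfaip6 (0.27), Hk2 for Has1 (0.20) and Cxcl1 for Ptx3 (0.18). Junb is an immediate-early gene, and levels of cells also share depth. For Saa3 and Lcn2 the highest such lowest r was 0.024 and 0.036, too weak in such sparse counts to name a gene. With each other they correlated at 0.66 in 16-week db/db and 0.32 in HFD, where few cells held either, and at 0.00 and 0.02 in WT and 8-week db/db.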

How the data were processed

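SVF cells of BAT were captured with 10x Genomics 3′ chemistry, 1 library for each of the 4 groups. The deposited values are whole-number UMI counts per gene and called barcode, made by the authors with Cell Ranger 7.1.0 per the labels (6.0.0 in the matrix header) on mm10, not normalized. Cell Ranger drops reads that map to more than 1 gene. Members, lists and gates were chosen with earlier results of these data known.

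Quality limits followed the study, with genes between 250 and 6000, UMIs between 500 and 30000, and a mitochondrial share below 15%. Lineages were gated on marker UMIs per 10000 (50 for stromal cells, macrophages and neutrophils, 10 for the others, with at least 2 marker UMIs). No annotation of cells was used, so a share may differ from that of the study through the rebuilt names. The 95 to 1174 barcodes per library that passed more than 1 gate were set aside, which removes doublets of unlike cells, and no doublet caller was run. Cells that reached no gate, 307 to 1248 per library, were left out of lineages.

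Summed counts gave CPM with exact Poisson intervals, shares had exact Clopper-Pearson intervals, and folds had conditional binomial intervals (Python 3.11.15, numpy 2.4.6, scipy 1.17.1, pandas 2.3.3). Thinning drew 1000 UMIs per cell with random seed 1. The background was every gene at 10 CPM or more in either library. The rule named, beside the 9, list genes past 2-fold in all 3 obese libraries, or else those with a list's largest and smallest ratio, and up to 3 genes per member with the highest correlation. Other list genes were named after their values were seen. With 1 library per group there is no test of conditions. Interval coverage and calls were tested on simulated data, but no value of that test is given, so nothing is read from it. Alternatives were other mitochondrial limits, stromal gates, depth limits, denominators, an added 1 CPM, and each side of the stromal cells alone. The looser macrophage gate and the Saa3 levels without 1 cell were chosen after seeing the data. Of 32285 gene identifiers, 32158 matched GENCODE vM21 (GRCm38).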

Additional observations from a re-analysis of the deposited data

Results flagged for a closer look

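In stromal cells or macrophages, 5 cases had a gene above WT in one obese library and below it in another, with both counting intervals clear of equality. Other lineages were not searched, for WT had few cells of them. These differences were not tested. Mt1 in stromal cells differed between 16-week db/db (log2 ratio to WT 0.55) and HFD (-1.92) by 2.47 on the log2 scale. Mt1 in macrophages differed between 16-week db/db (1.46) and HFD (-0.56) by 2.02. Mt2 in macrophages differed between 8-week db/db (1.54) and HFD (-1.48) by 3.03. Saa3 in macrophages differed between 8-week db/db (1.01) and 16-week db/db (-1.31) by 2.31, with 29.5% of the 8-week db/db UMIs in 1 cell, without which the 8-week log2 ratio was 0.60. Socs3 in macrophages differed between 8-week db/db (0.23) and HFD (-3.10) by 3.33. All 5 share the WT library.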

How the results depend on the processing

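Over 27 log2 ratios (9 genes in 3 obese libraries, stromal cells) and 16 alternatives, of which 3 were chosen after seeing the data, 267 values moved by less than their counting interval and 161 by more. Of the 16 ratios past 2-fold, 4 values changed sign: Has1 in 8-week db/db (0.10), Has2 in 16-week db/db (0.0096) and Has1 in HFD (0.32) on the Col15a1 and Col4a1 side alone, and Saa3 in HFD (-0.038) on the Pi16 and Dpp4 side alone. Over all 27 ratios, 28 values had the opposite sign. Lcn2 in 16-week db/db, at a ratio of 0.00, kept its sign in 6 of 16 alternatives. Has2, not past 2-fold in 8-week db/db or HFD, reached 0.48 and 0.84 there on 1 side alone. The count of genes higher in 8-week db/db went from 1 to 0 without cells above the 90th percentile of UMIs, with the mean of each cell's own share, with thinning, on the Pi16 and Dpp4 side, at 5% to 15% mitochondrial UMIs, at 2000 to 5000 UMIs, and without the cell with most UMIs of the gene in each library. The count lower in 8-week db/db went from 3 to 0 at 2000 to 5000 UMIs. The count higher in 16-week db/db went from 0 to 1 with thinning (Saa3, 1.02) or 1 CPM added (Saa3, 1.77), and at 5% to 15% mitochondrial UMIs (Mt1, 1.69) or 2000 to 5000 UMIs (Mt1, 1.84). In HFD the count higher went from 1 to 2 with 1 CPM added (Saa3 and Lcn2) and to 0 on the Pi16 and Dpp4 side, and the count lower from 6 to 3 at 5% to 15% mitochondrial UMIs and at 2000 to 5000 UMIs. The cause was not tested. No paired analysis was possible because each group has 1 library, and for the same reason no replicate could be left out. Counts limit Lcn2, with 1 to 34 stromal UMIs per library, and in 16-week db/db also Has1 (28), Saa3 (31) and Has2 (34).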
